A study of Mus musculus with 6 samples.

Results

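The 35 genes described here encode the steps that take glucose into the cell, split it to pyruvate, exchange pyruvate with lactate, pass it into the mitochondrion and store glucose as glycogen. They were chosen by name, as enzymes, transporters and regulators of these routes, with earlier results of these data known. All 35 were found among the 37620 genes of the count files. Ribosome-bound mRNA was measured from Gli1+ cells of the adult mouse dentate gyrus, with 3 samples of genotype Klf9 +/+ and 3 of Klf9 f/f. The paper takes the profile to come mostly from radial-glia-like neural stem cells (RGLs), the progeny of their first division, and astrocytes. Mice of both groups carried Gli1CreERT2, which drives a tamoxifen-dependent Cre recombinase in Gli1+ cells, and 1 Rpl22HA allele (f/+), which after recombination puts an HA epitope on a ribosomal protein so that ribosomes can be pulled down with their mRNA (RiboTag). Both groups were given tamoxifen in 3 injections 12 hr apart at 2 to 3 months of age, and RNA was isolated 4 days after the last injection from 6 dentate gyri of 3 mice pooled per sample. The Klf9 f/f group differed by floxed alleles of Klf9, a Krüppel-like zinc finger transcription factor, which Gli1CreERT2 can recombine in the same cells that it tags. A tagged cell is therefore any cell in which the Gli1 driver recombined, and a sample is a pool of mice, so a p-value here measures the spread between pools. The question was whether the translated mRNAs of glucose metabolism differ after recombination of Klf9.

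In glycolysis, hexokinase traps glucose as glucose 6-phosphate, phosphofructokinase commits it to breakdown, and aldolase splits the sugar into trioses that are oxidized to pyruvate. Lactate dehydrogenase interconverts pyruvate and lactate, while the pyruvate dehydrogenase complex makes acetyl-CoA from pyruvate and pyruvate carboxylase makes oxaloacetate. Astrocytes are known for aldolase C, for pyruvate carboxylase and for a store of glycogen, and RGLs share much of their gene expression with astrocytes.

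Between 21594714 and 66343759 reads were counted on genes in a sample. The library names fall into 2 series, 22 and 32, each with both genotypes, and replicate 3 of each genotype is the only sample of series 32, so no spread can be estimated within that series. Klf9 was measured at 201, 204 and 139 CPM (counts scaled to a common library size) in the Klf9 +/+ samples and at 114, 121 and 120 CPM in the Klf9 f/f samples. The ranges did not overlap, and the log2 fold change was -0.59 (SE 0.15, adjusted p = 0.84). Counts on Klf9 were thus not lost from the Klf9 f/f samples but stood at 0.663 times their level in Klf9 +/+, with 120 against 139 CPM in series 32. In the paper recombination deletes exon 1, while reads were counted over the whole gene. The counts therefore do not tell intact from recombined mRNA. The share of tagged cells that had lost Klf9 was not measured by these counts. Markers of RGLs (Sox2, Hopx, Fabp7 and others) were detected in every sample, as were all genes listed as markers of other cell types. At the threshold of the study (1.2-fold or more, unadjusted p under 0.05 in edgeR), 2.50% of all genes tested were called lower in Klf9 f/f and 1.82% higher. Called lower were 12 of 12 choroid plexus, 5 of 5 blood, 4 of 8 mural, 3 of 12 endothelial and 1 of 7 oligodendrocyte markers. The 14 astrocyte markers all had log2 fold changes above 0, of which Gfap, S100b and Aldh1l1 were called higher. Also called higher were 1 of 11 RGL markers and 1 of 7 oligodendrocyte markers, while 0 neuron and 0 microglia markers were called. In pulled-down bulk RNA, fewer cells of a type and less RNA per cell cannot be told apart.

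The levels of the 35 genes spanned a ratio of 5990 between the highest and the lowest in Klf9 +/+ samples, in CPM per kb of exon, the scale used to compare genes. Aldoc, aldolase C, stood highest at 1316 ± 383 CPM per kb (SD, n = 3). It was followed by the glyceraldehyde 3-phosphate dehydrogenase gene Gapdh at 422 ± 139, Aldoa (aldolase A) at 416 ± 75.6 and Ldhb (the H subunit of lactate dehydrogenase) at 409 ± 86.1 CPM per kb, 3 levels that did not differ beyond their spread. Of the 35 genes, 8 lay above 100 CPM per kb, 15 between 10 and 100, and 12 at or below 10. Tpi1 (triose phosphate isomerase), Pdhb (a subunit of pyruvate dehydrogenase), Ldha (the M subunit of lactate dehydrogenase) and Pygb (brain glycogen phosphorylase) completed the upper group. Such places depend on the length used, as Eno1 (enolase 1) was at 75.6 CPM per kb over all exons and 200.6 over its longest transcript. The lowest were Pfkfb2, Hk2, Slc16a7 and Slc16a3, from 1.38 ± 0.36 down to 0.22 ± 0.033 CPM per kb. Of the 34 neighbours in the order, 22 differed by less than the larger of their SDs.

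**Figure D1:**
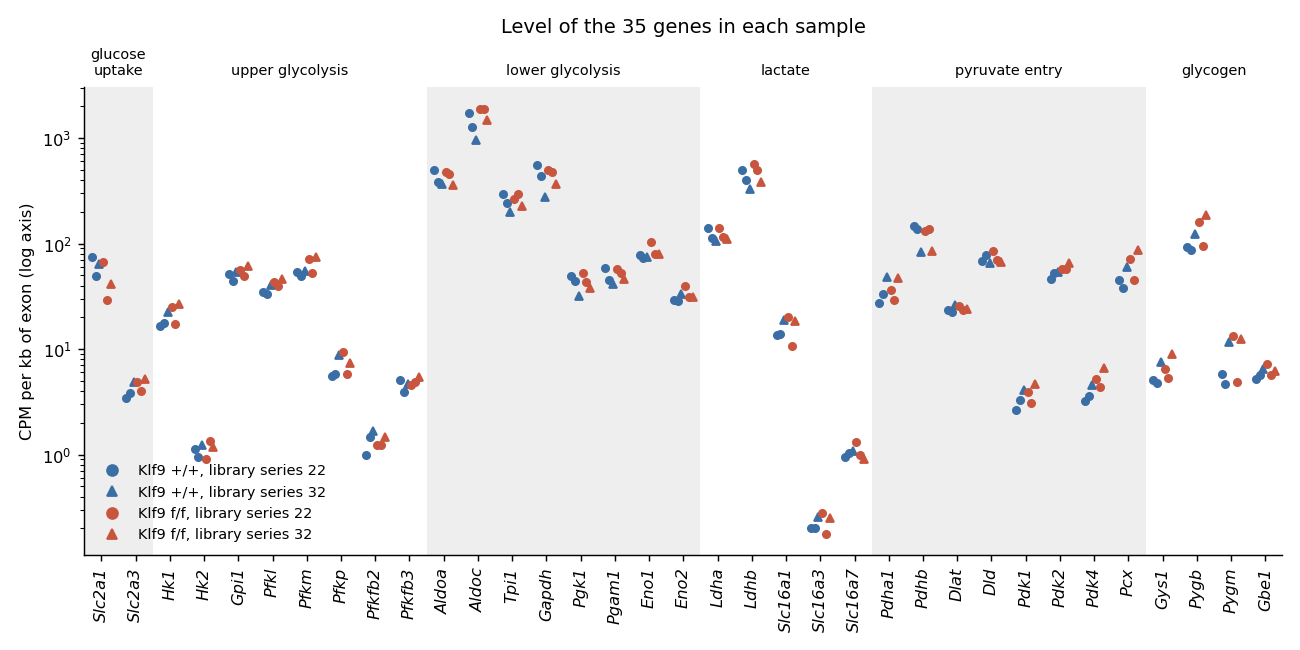
Level of each of the 35 genes, in CPM per kb of exon on a log axis, in the 6 samples, grouped by role along the horizontal axis. Points are samples, blue for Klf9 +/+ and red for Klf9 f/f, circles for library series 22 and triangles for series 32. Aldoc lies highest and Slc16a3 lowest in every sample.

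Several of these levels are lower bounds on the mRNA. The authors kept reads that map to 1 place, and genes of lower glycolysis have many processed copies in the mouse genome. The share of 50-base windows of the longest transcript that recur exactly elsewhere in the mm9 genome was 92.9% for Pgk1 (phosphoglycerate kinase), 91.9% for Pgam1 (phosphoglycerate mutase), 85.6% for Gapdh and 72.2% for Eno1 (enolase 1). It was 34.8% for Pdhb, 33.6% for Ldhb, 29.1% for Ldha, 23.6% for Tpi1, 14.8% for Aldoa and 13.3% for Gpi1, and 2.22% or less for the other 25 genes. Aldoc had no such window, so its order over Aldoa and Gapdh rests on values of unequal completeness. Reads were counted without regard to strand, and 16.5% of the exon sequence of Gpi1, 16.0% of that of Pdha1 and 15.6% of that of Slc16a3 is shared with an overlapping gene.

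Between genotypes, 4 of the 35 genes were called higher in Klf9 f/f samples and 0 lower, at a change of 1.2-fold or more and an unadjusted p under 0.05, the threshold of the study. These were Aldoc, Pdk4 (pyruvate dehydrogenase kinase 4, an inhibitor of the pyruvate dehydrogenase complex), Pcx (pyruvate carboxylase) and Pygb, with log2 fold changes from 0.43 to 0.54. In mm9 they lie at chr11:78136470-78141283 (Aldoc, plus strand), chr6:5433351-5446309 (Pdk4, minus strand), chr19:4510472-4621752 (Pcx, plus strand) and chr2:150612471-150657494 (Pygb, plus strand). Across all 15056 genes tested, 1.82% were called higher and 2.50% lower at this threshold, against 11.4% of the 35 called higher. No gene of the 35 and 0% of all genes had an adjusted p under 0.05 in edgeR's quasi-likelihood test, where 4 of the 35 had an unadjusted p under 0.05. The likelihood-ratio test and DESeq2 also gave 0 of the 35 an adjusted p under 0.05, while calling 58 and 39 of all genes at that level. The log2 fold change was above 0 for 32 of the 35 genes and for 50.2% of all genes tested, and the medians were 0.14 and 0.000835. The 35 directions come from the same 6 samples, so they are not separate measurements. The 35 genes were also chosen with earlier results of these data known, so their shares beside all genes are descriptive and test nothing. In 9 of the 35 every Klf9 f/f sample lay above the Klf9 +/+ samples of its own library series, which held for 7.78% of all genes tested, and in 0 of the 35 did every Klf9 f/f sample lie below, against 5.53%. The 9 were Slc2a3, Pfkl, Aldoc, Eno1, Ldhb, Pdk2, Pdk4, Gys1 and Pygb.

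**Figure D2:**
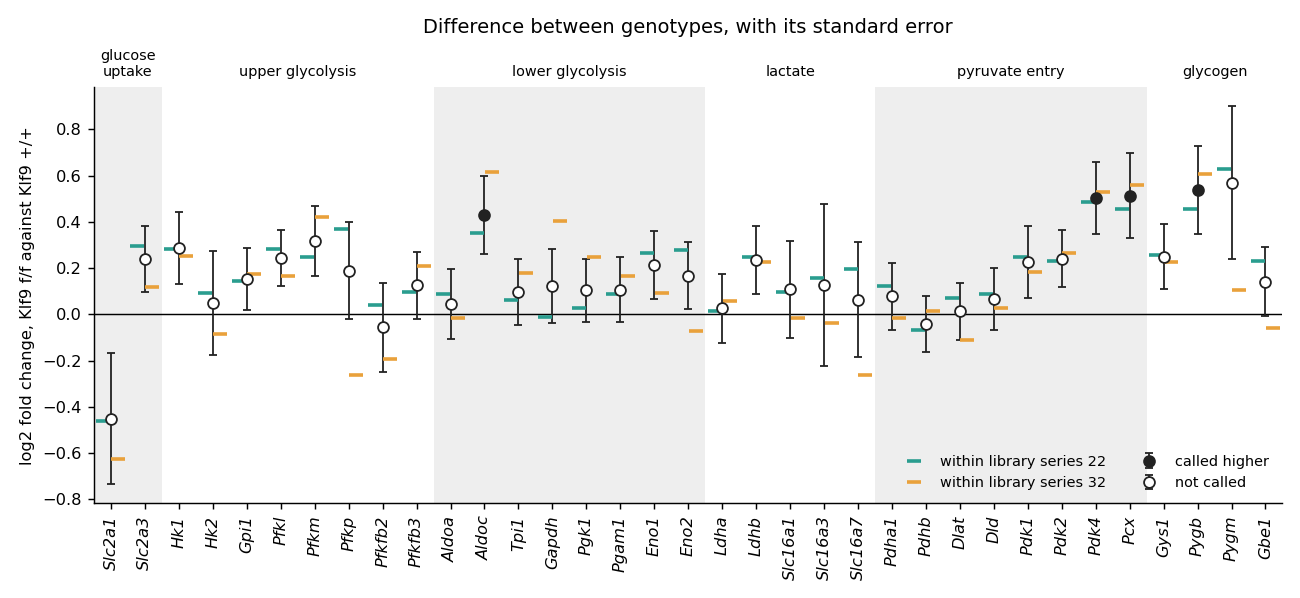
Log2 fold change of the 35 genes, Klf9 f/f against Klf9 +/+, by role. Circles with bars are the fitted value and its standard error, filled where the gene was called higher, and short lines are the differences of mean log2 CPM within library series 22 (green) and 32 (orange). Aldoc, Pdk4, Pcx and Pygb are filled, and only Slc2a1, Pfkfb2 and Pdhb have fitted values below 0.

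The 4 calls were not kept in every setting. Without the term for library series, and within series 22 alone, 0 of the 35 genes were called. Leaving out Klf9 +/+ replicate 3 or Klf9 f/f replicate 3 also left 0 calls, and series 32 then holds 1 sample and gives no comparison. Fitted in series 22 alone, the log2 fold changes were 0.331 for Aldoc, 0.486 for Pdk4, 0.485 for Pcx and 0.498 for Pygb. Why the calls were lost was not tested. Without Klf9 +/+ replicate 2 only Pdk4 was called, and without Klf9 f/f replicate 1 Aldoc and Pdk4 were called higher and Slc2a1 lower. Without Klf9 f/f replicate 2 the count rose to 6, with Pygm, Pfkm and Hk1 in and Aldoc out. Over all 13 alternatives the log2 fold change stayed between 0.33 and 0.59 for Aldoc, 0.44 and 0.57 for Pdk4, 0.31 and 0.69 for Pcx, and 0.32 and 0.73 for Pygb.

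Aldoc was measured at 5617, 4133 and 3131 CPM in the Klf9 +/+ samples and at 6103, 6211 and 4805 CPM in the Klf9 f/f samples. The groups overlapped when pooled, because Klf9 +/+ replicate 1 exceeded Klf9 f/f replicate 3, but within each library series the Klf9 f/f samples were higher. The log2 fold change was 0.43 (SE 0.17, adjusted p = 1.00), with 0.35 within series 22 and 0.62 within series 32. Pdk4 was measured at 11.3, 12.6 and 16.1 CPM in Klf9 +/+ and at 18.1, 15.4 and 23.2 CPM in the Klf9 f/f samples. The log2 difference was 0.50 (SE 0.15, adjusted p = 1.00), nearly the same within series 22 (0.49) and series 32 (0.53).

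Pcx was measured at 194, 161 and 254 CPM in Klf9 +/+ and at 306, 192 and 375 CPM in the Klf9 f/f samples, a log2 fold change of 0.51 (SE 0.18, adjusted p = 1.00). Klf9 f/f replicate 2 lay just below Klf9 +/+ replicate 1 of the same library series, so the groups overlapped. Pygb was measured at 448, 416 and 592 CPM in Klf9 +/+ and at 763, 460 and 902 CPM in the Klf9 f/f samples, a log2 fold change of 0.54 (SE 0.19, adjusted p = 1.00). For both genes replicates 1 and 3 of Klf9 f/f were far above replicate 2. In 12 of the 14 astrocyte markers Klf9 f/f replicate 1 was above replicate 2, an order not particular to them. It also held in 12 of 12 endothelial, 7 of 7 oligodendrocyte and 5 of 5 blood markers. The same was seen in 7 of 8 microglia and 7 of 8 mural markers. Fewer followed it among neuron (7 of 12), choroid plexus (6 of 12) and RGL (5 of 11) markers. Aldh1l1, a folate enzyme that marks astrocytes, was at 62.7, 47.3 and 81.3 CPM in Klf9 +/+ and at 139, 62.7 and 139 CPM in the Klf9 f/f samples, and Gfap, an intermediate filament of astrocytes and RGLs, at 2210, 1866 and 3108 and at 3306, 2268 and 4026 CPM. The summed level of the 14 astrocyte markers ranged from 11010 to 14520 CPM in Klf9 +/+ and from 12750 to 18090 CPM in Klf9 f/f, with none at 0, and their part in the values of Pcx, Pygb, Pdk4 and Aldoc was not tested.

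**Figure D3:**
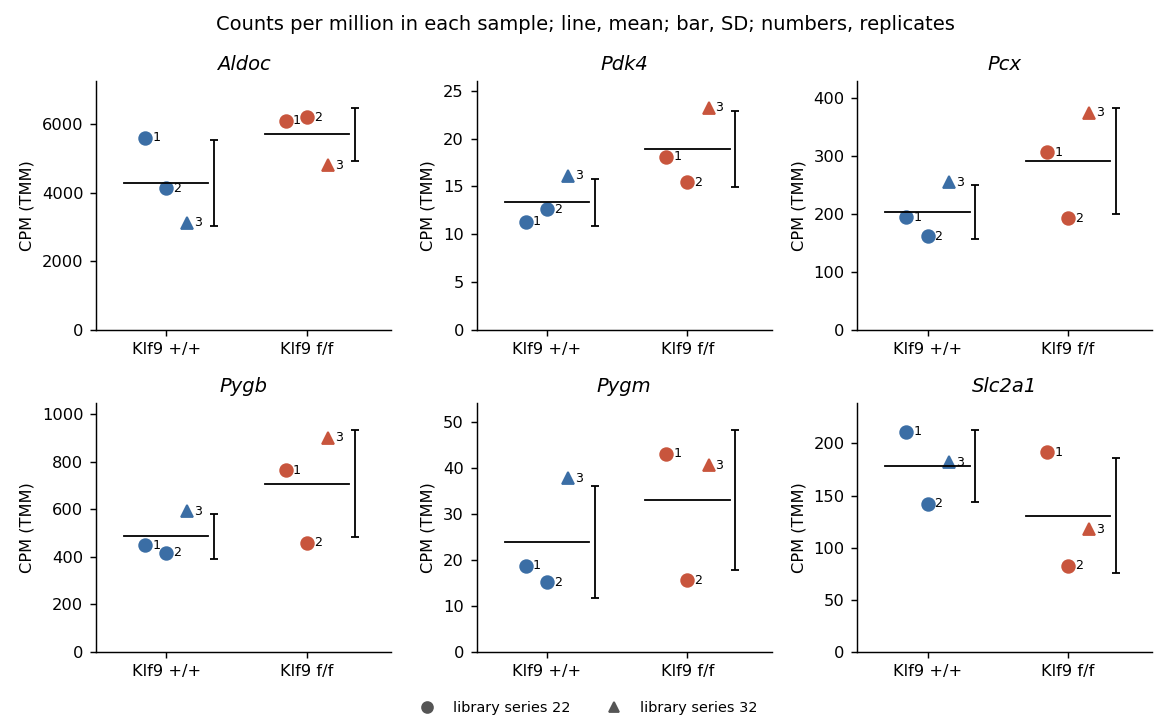
CPM, scaled by TMM, of 6 genes in each sample, with the replicate number beside each point. The line is the mean of 3 samples and the bar its SD, and triangles mark library series 32. Klf9 f/f replicate 2 is the lowest Klf9 f/f sample for Pdk4, Pcx, Pygb, Pygm and Slc2a1, but not for Aldoc.

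The promoters of the 4 genes called higher are shown because Krüppel-like factors bind GC boxes and CACCC boxes. Each line is the stretch directly before the outermost annotated start of transcription, 5′ to 3′ on the strand of the gene, from RefSeq on GRCm38.p6: chr11:78322823-78323072 on the plus strand for Aldoc, chr6:5496279-5496528 on the minus strand for Pdk4, chr19:4510222-4510471 on the plus strand for Pcx and chr2:150786546-150786795 on the plus strand for Pygb. Capitals mark matches on either strand to CACCC, to the GC box GGGCGG and to ACGTG, the core of the element bound by hypoxia-inducible factors and other helix-loop-helix factors.
Aldoc: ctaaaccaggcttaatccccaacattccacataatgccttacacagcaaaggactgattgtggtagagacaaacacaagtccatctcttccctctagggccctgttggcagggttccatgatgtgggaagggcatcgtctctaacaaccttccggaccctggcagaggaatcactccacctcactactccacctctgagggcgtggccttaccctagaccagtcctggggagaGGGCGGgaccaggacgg
Pdk4: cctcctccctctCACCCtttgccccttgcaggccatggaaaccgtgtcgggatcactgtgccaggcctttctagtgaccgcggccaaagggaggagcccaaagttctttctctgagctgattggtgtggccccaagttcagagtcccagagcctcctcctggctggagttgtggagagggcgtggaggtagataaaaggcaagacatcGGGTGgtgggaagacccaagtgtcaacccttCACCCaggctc
Pcx: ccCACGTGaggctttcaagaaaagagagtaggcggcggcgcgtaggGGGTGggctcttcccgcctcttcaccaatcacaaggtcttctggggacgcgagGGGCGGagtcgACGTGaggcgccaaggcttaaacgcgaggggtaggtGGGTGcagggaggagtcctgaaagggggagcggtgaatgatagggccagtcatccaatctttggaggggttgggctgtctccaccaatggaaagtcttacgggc
Pygb: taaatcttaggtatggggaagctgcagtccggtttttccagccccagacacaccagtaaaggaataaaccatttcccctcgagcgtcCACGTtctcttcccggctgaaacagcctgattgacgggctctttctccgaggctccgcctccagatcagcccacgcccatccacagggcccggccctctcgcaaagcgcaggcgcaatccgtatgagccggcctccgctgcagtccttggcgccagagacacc

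The Pdk4 promoter held 3 CACCC matches and the Pcx promoter 2, while those of Aldoc and Pygb held 0. GGGCGG occurred once each in the promoters of Aldoc and Pcx. ACGTG was matched at 3 positions in Pcx, 2 of which are the strands of 1 CACGTG, and at 1 position in Pygb. Of the 35 genes, 33 had a promoter in the table, all but Slc2a3 and Slc16a7. CACCC was present in 60.6% of the 33 and in 51.3% of 27025 mouse promoters of the same length, GGGCGG in 48.5% and 33.0%, and ACGTG in 42.4% and 16.5%. A match is a run of letters and not a bound site, and binding was not measured in these samples.

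Of the glucose transporters, Slc2a1 (GLUT1), carried by astrocytes and by the endothelium of brain vessels, was lower on average in Klf9 f/f, and Slc2a3 (GLUT3), the transporter typical of neurons, was higher. Neither was called. Slc2a1 was measured at 211, 142 and 182 CPM in Klf9 +/+ and at 192, 82.8 and 118 CPM in the Klf9 f/f samples, a log2 fold change of -0.45 (SE 0.28). The groups overlapped, with replicate 2 lowest in both. The summed level of 12 endothelial markers was 417, 167 and 273 CPM in Klf9 +/+ and 266, 64.4 and 98.3 CPM in Klf9 f/f, highest in Klf9 +/+ replicate 1 and lowest in Klf9 f/f replicate 2 as for Slc2a1, with none at 0, and their part in the Slc2a1 values was not tested. Slc2a1 was called lower (-0.89) without Klf9 f/f replicate 1 and again (-0.45) when genes were kept down to 1 count. Slc2a3 was at 24.6, 28.0 and 34.9 CPM in Klf9 +/+ and at 35.5, 29.3 and 37.9 CPM in the Klf9 f/f samples, a log2 fold change of 0.24 (SE 0.14). Each Klf9 f/f sample lay above the Klf9 +/+ samples of its series, by less than 1 SD in series 32 and, for replicate 2, in series 22.

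Of the 8 genes from hexokinase to fructose bisphosphate, 0 were called and 7 had log2 fold changes above 0, with a median of 0.17. Pfkm, the muscle type of phosphofructokinase, was the highest of them per kb of exon in Klf9 +/+, at 52.6 ± 3.19 CPM per kb, close to Gpi1 (glucose 6-phosphate isomerase). Counted over the longest transcript instead, Gpi1 stood above Pfkm, at 70.4 against 55.8 CPM per kb. Pfkm was at 163, 150 and 169 CPM in Klf9 +/+ and at 217, 159 and 226 CPM in the Klf9 f/f samples (log2 fold change 0.32, SE 0.15), with Klf9 f/f replicate 2 inside the Klf9 +/+ range. Pfkl, the liver type, had less scatter. It was at 151, 147 and 180 CPM in Klf9 +/+ and at 188, 174 and 201 CPM in the Klf9 f/f samples (log2 fold change 0.24, SE 0.12), higher in each library series. Hk1, the hexokinase of most brain cells, was at 141, 151 and 192 CPM in Klf9 +/+ and at 212, 149 and 228 CPM in the Klf9 f/f samples (0.29, SE 0.16). Hk2, the insulin-responsive hexokinase of muscle, ranged from 5.45 to 8.00 CPM over all 6 samples, at 0.05 (SE 0.23). Gpi1 (0.15, SE 0.13), Pfkp (the platelet type, 0.19, SE 0.21), Pfkfb3 (0.13, SE 0.15) and Pfkfb2 (-0.06, SE 0.19) completed the group. Pfkfb2 and Pfkfb3 make and remove fructose 2,6-bisphosphate, the activator of phosphofructokinase.

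All 8 genes of lower glycolysis had log2 fold changes above 0, with a median of 0.11, and Aldoc alone was called. Eno1 separated the genotypes without overlap, at 420, 395 and 405 CPM in Klf9 +/+ and 556, 430 and 432 CPM in Klf9 f/f (log2 fold change 0.21, SE 0.15), although 72.2% of its windows recur elsewhere. Replicate 1 of Klf9 f/f stood apart from the other 2 there. Gapdh was at 1240, 994 and 620 CPM in Klf9 +/+ and at 1129, 1077 and 822 CPM in the Klf9 f/f samples, which overlap (0.12, SE 0.16), with -0.01 within series 22 and 0.41 within series 32. Aldoa was at 1384, 1047 and 1003 CPM against 1305, 1258 and 992 CPM (0.05, SE 0.15), so of the 2 aldolases only aldolase C was called. Tpi1 (0.10), Pgk1 (0.10), Pgam1 (0.11) and Eno2 (neuronal enolase, 0.17) had standard errors of 0.14 to 0.15.

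None of the 5 lactate genes was called, and their log2 fold changes ran from 0.03 to 0.24. Ldhb was at 785, 628 and 516 CPM in Klf9 +/+ and at 883, 786 and 603 CPM in the Klf9 f/f samples (0.24, SE 0.15). Within each library series the Klf9 f/f samples were higher, though replicate 2 was level with Klf9 +/+ replicate 1. Ldha was at 423, 339 and 319 CPM against 422, 346 and 332 CPM (0.03, SE 0.15), with the ranges nearly the same. Slc16a1 (MCT1, a monocarboxylate transporter of glia and endothelium) ranged from 47.4 to 88.8 CPM over the 6 samples (0.11, SE 0.21), and Klf9 f/f replicate 2 was the lowest of all samples. Slc16a7 (MCT2, the neuronal transporter) ranged from 3.52 to 5.11 CPM and Slc16a3 (MCT4, a transporter that exports lactate from glycolytic cells) lay at about 1 CPM. At such levels differences of the size seen in Pdk4 could not be resolved for Slc16a3, whose standard error was 0.35.

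At the entry of pyruvate into the mitochondrion, Pdk4 and Pcx were called higher, and the catalytic genes of the complex were not. Log2 fold changes were 0.08 (SE 0.15) for Pdha1, -0.04 (SE 0.12) for Pdhb, 0.01 (SE 0.12) for Dlat and 0.07 (SE 0.13) for Dld, which encode the E1, E2 and E3 components. Pdhb was the highest of the group per kb, at 217, 204 and 125 CPM in Klf9 +/+ and at 195, 206 and 126 CPM in the Klf9 f/f samples. The samples of series 32 were low in both genotypes. Pdk2, the most abundant of the kinases per kb, was at 146, 165 and 171 CPM in Klf9 +/+ and at 182, 182 and 206 CPM in the Klf9 f/f samples, without overlap (0.24, SE 0.12), but stayed short of the threshold. Pdk1, a kinase induced by hypoxia, was at 0.23 (SE 0.16).

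All 4 glycogen genes had log2 fold changes above 0, with a median of 0.39, and Pygb was called. Pygm, muscle glycogen phosphorylase, had the largest fitted value of the 35 genes and was not called. It was at 18.7, 15.1 and 37.7 CPM in Klf9 +/+ and at 43.1, 15.6 and 40.5 CPM in the Klf9 f/f samples (0.57, SE 0.33). Its difference was 0.63 within series 22 and 0.10 within series 32, and it was -0.02 without Klf9 f/f replicate 1 and 0.84 without replicate 2. Gys1 (glycogen synthase) was at 24.3, 22.7 and 36.5 CPM against 31.1, 25.3 and 42.6 CPM (0.25, SE 0.14), higher in each library series. Gbe1, the branching enzyme, was at 0.14 (SE 0.15).

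Isoenzymes that catalyse 1 step, or transporters of 1 substrate, were also compared as ratios within each sample, which removes library size. The 13 ratios were tested by an exact two-sided permutation test over the 6 samples, in which 3 against 3 cannot go below p = 0.1. Aldoc to Aldoa was the only ratio without overlap between genotypes. Per kb it was 3.43, 3.33 and 2.63 in Klf9 +/+ and 3.95, 4.17 and 4.09 in Klf9 f/f, a difference of 0.39 in log2 ratio (exact permutation p = 0.1, adjusted over 13 ratios 0.975), with 0.26 within series 22 and 0.63 within series 32. Aldoc thus made up 75.6 ± 2.71% of the aldolase A and C signal per kb in Klf9 +/+ and 80.3 ± 0.44% in Klf9 f/f (SD, n = 3). The ratio of Slc2a3 to Slc2a1 was higher in Klf9 f/f by 0.75 in log2, by 0.76 within series 22 and 0.75 within series 32, with overlapping groups (exact permutation p = 0.3). The ratio of Ldha to Ldhb was lower by 0.21 in log2 on average, at 0.284, 0.284 and 0.326 in Klf9 +/+ and 0.252, 0.232 and 0.290 in Klf9 f/f (exact permutation p = 0.3). That of Pdk4 to Pdk2 was higher by 0.26, from 0.0698, 0.0689 and 0.0849 to 0.0897, 0.0766 and 0.102 (exact permutation p = 0.2). The other 9 ratios differed by at most 0.24 in log2, and every one of the 13 had an adjusted exact p of 0.975 or 1.

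**Figure D4:**
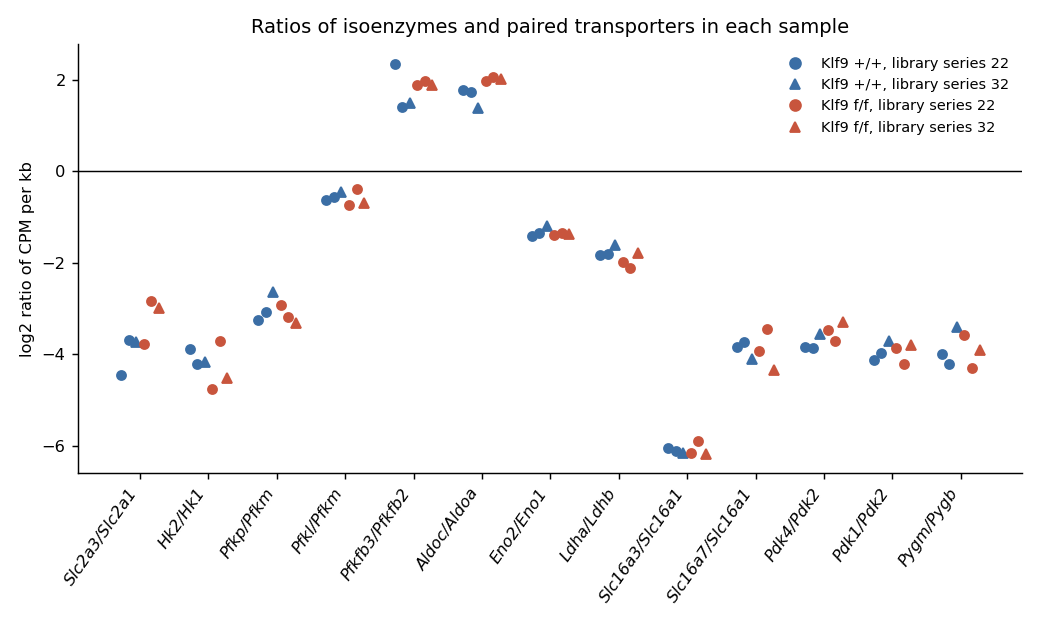
Log2 ratio of CPM per kb for 13 pairs of isoenzymes or transporters in each sample, blue for Klf9 +/+ and red for Klf9 f/f, circles for library series 22 and triangles for series 32. Aldoc to Aldoa is the only pair whose red points all lie above the blue ones, and pairs above 0 have more signal from the first gene named.

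The makeup of each family was then taken as the share of its CPM per kb in Klf9 +/+, over the tested members named. Hk1 gave 94.4 ± 0.71% of the signal of Hk1 and Hk2 together. Slc2a1 gave 59.6 ± 4.65% of the signal of 8 Slc2a family genes, followed by Slc2a8 at 13.7 ± 1.43% and Slc2a4 at 10.4 ± 0.47%, both above Slc2a3. Pdk2 gave 65.6 ± 1.62% of the 4 pyruvate dehydrogenase kinases and Pdk3 25.2 ± 2.79%, which left Pdk1 and Pdk4 at 4.30% and 4.89%. Pygb gave 88.8 ± 1.06% of the 3 glycogen phosphorylases, and Ldhb 77.1 ± 1.41% of Ldha and Ldhb together. Phosphofructokinase was shared between Pfkm, at 55.2 ± 2.27%, and Pfkl, at 37.8%. Slc16a1 gave 85.7 ± 7.20% of 4 monocarboxylate transporters. Over the samples of both genotypes, Slc16a8 took between 0.039% and 16.6% of their signal. Counted over the longest transcript instead of all exons, 8 of 13 ratios moved by more than 1 SD and 0 changed direction.

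Among 66 further genes of the same routes, also listed with earlier results known, 52 could be tested. Of these, 5 were called higher in Klf9 f/f (9.62%) and 1 lower, beside 1.82% higher and 2.50% lower of all genes tested. Of the 5, 4 belong to glycogen, where 20 genes were tested. Because the list was made with earlier results known, its shares beside all genes are descriptive and test nothing, for glycogen as well. Pygl, liver glycogen phosphorylase, was at 20.8, 20.9 and 22.2 CPM in Klf9 +/+ and at 36.6, 29.0 and 28.8 CPM in the Klf9 f/f samples (log2 fold change 0.56, SE 0.15), without overlap. Ppp1r3g, which targets a phosphatase to glycogen, was at 10.1, 6.85 and 9.02 CPM against 14.5, 9.47 and 19.1 CPM (0.69, SE 0.25). Epm2a, the glycogen phosphatase laforin, was at 1.70 to 3.20 CPM against 3.11 to 4.30 CPM (0.68, SE 0.29), and Pgm2, a phosphoglucomutase, at 94.6 to 129 CPM against 124 to 159 CPM (0.40, SE 0.16). Pgm2 is here the GENCODE M1 name of the gene at chr4:99602019-99659899 in mm9. The gene that this annotation names Pgm1 lies on chr5, and other annotations may name the 2 genes differently. The list also holds breakdown and synthesis regulators that were not called, such as Ppp1r3c (0.32, SE 0.19) and Gsk3b (-0.25, SE 0.17). Outside glycogen, Gpd1, the cytosolic glycerol 3-phosphate dehydrogenase that draws on triose phosphate, was at 729, 655 and 939 CPM against 927, 952 and 1209 CPM (0.42, SE 0.13). Pkm, the pyruvate kinase of these cells, was the highest of the other glycolysis genes, and it separated the groups at 1261, 1155 and 1156 against 1497, 1278 and 1329 CPM without being called (0.20, SE 0.14), although 41.4% of its windows recur elsewhere. The gene called lower was Slc16a8 (MCT3, a lactate transporter of retinal and choroid plexus epithelium), at 0.101, 1.30 and 7.19 CPM in Klf9 +/+ and at 0.0153, 0.141 and 1.11 CPM in the Klf9 f/f samples. It was highest in the sample where the 12 choroid plexus markers were highest, 4141 CPM in Klf9 +/+ replicate 3 against 114 to 1004 CPM in the other 5 samples, and their part in its values was not tested. Median log2 fold changes were 0.25 for the other glycogen genes and 0.04 for all 52 genes, and no gene had an adjusted p under 0.05. Of the 5 genes called higher, Pygl alone was called in series 22 by itself.

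Samples of 1 genotype also differed among themselves. Klf9 f/f replicate 1 was above replicate 2 for 30 of the 35 genes, and replicate 2 lay below the higher of the 2 Klf9 +/+ samples of its series for 23 of them. Among the 52 other pathway genes tested these counts were 27 and 34. The mean of the Klf9 f/f samples was higher in 32 of the 35 genes within library series 22, in 23 within series 32, and in 21 within both. For the 52 other genes the numbers were 33, 35 and 24. Shares over all genes tested were not taken for these counts. The library series themselves divided the genes by sequence. Of the 10 genes with over 10% of windows repeated elsewhere, 9 were lower in series 32 than in series 22 in both genotypes, with a median log2 difference of -0.37 in Klf9 +/+ and -0.32 in Klf9 f/f. Of the other 25 genes 2, Aldoc and Dld, were lower in series 32 in both genotypes, with medians of 0.36 and 0.20. The genes with repeated sequence also have short transcripts, and among the 18 genes whose longest transcript reaches 3000 bases 0 were lower in series 32 in both genotypes. Among the 8 genes that are shorter but have few repeated windows, 2 were. The share of reads set aside as mapping to more than 1 place was higher in series 32 (12.99% and 13.6% of all reads tallied) than in series 22 (7.63% to 8.95%), and its part in these differences was not tested. The 3000-base and 10% limits were set after the values were seen.

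**Figure D5:**
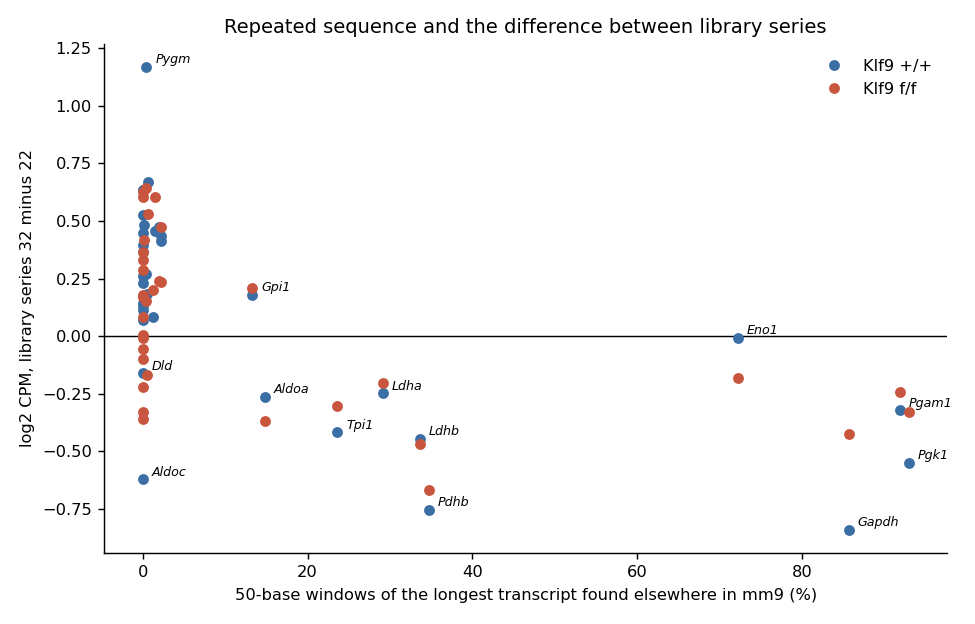
Difference in mean log2 CPM between library series 32 and 22 for each of the 35 genes, within Klf9 +/+ (blue) and Klf9 f/f (red), against the percent of 50-base windows of its longest transcript that recur elsewhere in mm9. Right of 10% all genes but Gpi1 lie below 0, and Aldoc is the lowest gene without repeated windows.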

How the data were processed

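Ribosome-bound mRNA of Klf9 +/+ and Klf9 f/f mice (tamoxifen at 250 mg/kg) was sequenced as 50-base reads. The authors aligned the reads with STAR to mm9, tallied uniquely mapped reads on genes by HTSeq in unstranded mode, and deposited the whole-number counts with no normalization. The 5 summary lines of each file were left out of the tests. Groups came from the genotype labels, and library series from the library names in the titles. Replicate numbers do not pair samples.

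Genes passing 1 CPM in 1 or more samples were normalized by TMM and tested with glmQLFTest of edgeR 4.0.16 (R 4.3.3) with a term for library series. The standard error is the size of the log2 fold change over the square root of F. On simulated counts in which 200 genes had a log2 change of 1, 91.3% were called at the threshold of the study, 63.6% at an adjusted p under 0.05 (Benjamini-Hochberg), and 4.79% of unchanged genes were called. Fitted values of the 35 genes lay between -0.45 and 0.57, and recovery of changes of that size was not simulated.

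Isoenzyme ratios used counts plus 0.5 and exact permutation (scipy 1.17.1). Lengths, overlaps and repeated windows came from mm9 with GENCODE M1, and promoters from RefSeq (GRCm38.p6). Values per sample are given for genes called, genes separated within both library series, the highest of each role group and the pairs described. The members and lists were chosen with earlier results of these data known. DESeq2 1.42.0, the likelihood-ratio test, other filters and scalings, and left-out samples were alternatives.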

Additional observations from a re-analysis of the deposited data

How the results depend on the processing

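Without the term for library series, 0 of the 35 genes were called higher, and of the other pathway genes 2 were called higher and 0 lower. In library series 22 alone 0 of the 35 were called, 1 other pathway gene was called higher, and 3 isoenzyme ratios did not overlap. With genes kept down to 1 count, 1 of the 35 (Slc2a1) was called lower and 8 other pathway genes higher. Leaving out each sample in turn gave 0 to 6 of the 35 called higher, 0 to 1 lower, 1 to 8 other pathway genes higher, and 1 to 4 ratios without overlap. With fewer samples in a group, ratios separate more readily, so these counts of ratios cannot be compared with the count over all 6 samples. The log2 fold changes of Pfkfb2 (0.0082) and Gapdh (-0.025) changed sign in series 22 alone. With 1 sample left out they ranged from -0.145 to 0.181 for Hk2, -0.102 to 0.412 for Pfkp, -0.227 to 0.104 for Pfkfb2, -0.072 to 0.159 for Aldoa, -0.025 to 0.259 for Gapdh, -0.058 to 0.129 for Ldha, -0.208 to 0.314 for Slc16a1, -0.118 to 0.280 for Slc16a3, -0.115 to 0.213 for Slc16a7, -0.028 to 0.152 for Pdha1, -0.040 to 0.075 for Dlat, -0.018 to 0.135 for Dld and -0.020 to 0.842 for Pygm. None of these 13 was called in the full comparison. Of 455 values of the 35 genes under 13 alternatives, 403 kept both direction and call, 22 lost a call, 7 gained one and 23 changed sign. Most of the 403 are genes not called in the full comparison that stayed uncalled. Only the 4 genes called could lose a call. Aldoc, Pcx and Pygb each kept theirs in 7 of the 13 alternatives and Pdk4 in 9. The cause of these changes was not tested. The number with an adjusted p under 0.05 was 0 of 35 under each alternative, and Klf9 itself had log2 fold changes from -0.51 to -0.79. No paired analysis was possible because the replicate numbers follow accession order and the labels pair no samples, and the library series was fitted as a term instead. Library series 32 holds 1 sample of each genotype, and Slc16a3, near 1 CPM, had a larger standard error than the genes called higher.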

Other observations

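Gapdhs, the sperm form of glyceraldehyde 3-phosphate dehydrogenase, was at 6.15 and 8.28 CPM in the Klf9 +/+ samples of library series 22 and at 5.30 and 9.33 CPM in the Klf9 f/f samples of that series. In the samples of series 32 it was at 0.163 and 0.0891 CPM, so the series differed by -5.45 in log2 CPM in Klf9 +/+ and by -6.30 in Klf9 f/f, while the log2 fold change between genotypes was -0.05 (SE 0.32). This gene was chosen after its values were seen.

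Slc2a12, a glucose transporter, was at 6.07 and 6.63 CPM in the Klf9 +/+ samples of series 22 and at 23.7 CPM in Klf9 +/+ replicate 3, which also had the highest level of choroid plexus markers. In Klf9 f/f it was at 9.97 and 6.64 CPM in the series 22 samples and at 13.05 CPM in replicate 3, so series 32 lay above series 22 by 1.90 in log2 CPM in Klf9 +/+ and by 0.68 in Klf9 f/f. Between genotypes the log2 fold change was -0.02 (SE 0.28), with 0.36 within series 22 and -0.86 within series 32. This gene too was chosen after its values were seen, and the part of other cells in its level was not tested.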
